A study of Mus musculus with 12 samples.

Results

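The response of parental 344SQ tumours to blockade of PD-1 was taken from 6 of the 12 arrays of the study: 3 labelled Sen+PD1 and 3 labelled Sen+IgG, where Sen stands for the parental, sensitive line. Whole tumours were measured on Affymetrix GeneChip Mouse Genome 430 2.0 arrays, and each value is a log2 expression level of 1 probe set. The tumours had grown under the skin of female 129sv/ev mice from 344SQ, a mouse lung adenocarcinoma cell line, and all mice of the study shared that strain and sex. Mice with parental tumours were dosed with anti-PD-1 or with control IgG, each at 10 mg/kg, 4 days and 7 days after the cells were injected, and tumours were taken on day 11. The remaining 6 arrays came from an anti-PD-1 resistant derivative of the line, labelled Res, given the same antibodies at the same times, and they enter here as a comparison and as part of the estimate of spread. Each group had 5 mice and 3 arrays. Which mice stand behind an array is not stated in the labels, so the p-values measure the spread between these arrays, which may be partly technical. The host mice kept their own immune system, skin, muscle and vessels, and the arrays read RNA of tumour and host cells together. In such bulk samples fewer cells of a type and less RNA per cell cannot be told apart.

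PD-1 is an inhibitory receptor of activated T cells, and its ligand PD-L1 is made by tumour and myeloid cells. Antibodies that block PD-1 are given to release T cells, and interferon gamma from those cells induces antigen presentation genes, guanylate binding proteins and PD-L1 itself in their surroundings. Immediate early genes such as Fos, Fosb and Egr1 are switched on within minutes by growth factors, cytokines, stress and handling of tissue, without new protein synthesis, and their products then drive further genes or shut the signal off.

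Of 15493 genes tested with limma over all 12 arrays, 542 differed between anti-PD-1 and IgG in parental tumours at an adjusted p under 0.05, which is 3.5% and is the background for the counts of called genes below. A gene that passed is said to have risen or fallen. In all 191 genes rose (1.23%) and 351 fell (2.27%), 31 and 19 of them by at least 2-fold. These 2 shares are the background for counts of genes that rose or that fell. Before adjustment 3400 genes had a p under 0.05, 9.66% of all genes on the higher side and 12.3% on the lower side. The 3 anti-PD-1 arrays did not overlap the 3 IgG arrays for 22.6% of all genes, 9.12% with anti-PD-1 higher and 13.4% with it lower. The median difference over all genes was -0.01 on the log2 scale, and 48.2% of genes had a positive difference.

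Among named genes that passed, the largest rises were those of Fosb, the cytokine gene Il6, the embryonic myosin light chain gene Myl4 and the muscle transcription factor gene Myog, and the largest falls were those of the chloride channel gene Cftr, the glutathione peroxidase gene Gpx2, the transporter gene Slc16a12 and the potassium channel subunit gene Kcne3. By group, the higher calls held many immediate early and feedback genes, and the lower calls held mitochondrial ribosomal protein genes, epithelial transporters and detoxification enzymes. Interferon and antigen presentation genes had positive medians without a call.

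Arrays within the groups differed. IgG replicate 1 and anti-PD-1 replicate 3 lay apart from their groups along the second principal component, with scores of 41.6 and -33.4 against 9 and 10.3 for the other IgG arrays and 15.4 and -1.2 for the other anti-PD-1 arrays. Skeletal muscle, myeloid and epithelial genes moved with them. Myh4, a fast myosin of skeletal muscle, was at 6.38 in IgG replicate 1 and between 10.13 and 12.5 in the other 5 parental arrays. The neutrophil gene S100a8 was at 10.56 in anti-PD-1 replicate 3 and between 5.95 and 8.24 elsewhere, and the epithelial adhesion gene Epcam was highest in IgG replicate 1 at 10.37 and lowest in anti-PD-1 replicate 3 at 7.68. Every comparison was therefore also made without both arrays, 2 against 2. The part that tissue content plays in the results was not tested.

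Without both arrays 100 genes were called, or 0.645%, with 25 higher (0.161%) and 75 lower (0.484%), and 70 of these 100 were among the 542. The lists below were read against 49.4% positive genes in that fit. Since no called gene had overlapping groups, the direction of the 542 without these arrays was fixed by the choice of genes and is no sign of stability. With the spread estimated from the 6 parental arrays alone, limma called 0 genes, with 2416 at an unadjusted p under 0.05 and a smallest adjusted p of 0.103, so the calls rest on the spread shared with the resistant arrays. The number of calls was 165 without IgG replicate 1, 11 without IgG replicate 2, 9 without IgG replicate 3, 712 without anti-PD-1 replicate 1, 507 without anti-PD-1 replicate 2 and 57 without anti-PD-1 replicate 3. Of the 89 called genes described below, 37, 7, 7, 71, 60 and 21 kept their call in these 6 fits. Without both arrays 27 of the 89 kept it, and the size of 12 moved by over 1.5 times, namely Cftr, Il6, Cilp, Pi16, Has1, Igf2, Ccl4, Stat3, Zfp36, Btg2, Ly6k and Mcpt8. With the mean of a gene's probe sets in place of the brightest, 68 kept it and the size of 26 moved by over 1.5 times, among them Nav2 (0.54), Gsta3 (-0.75), Ddc (-0.82), Jund (0.30), Lif (0.35), Zfp606 (-0.56) and Mrpl21 (-0.09). Among all 542 genes Fos, Fosb, Nav2, Gsta3 and Mia kept their call whichever parental array was left out. Of these Gsta3 was dim, with anti-PD-1 arrays at 3.15, 2.97 and 3.01.

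The labelled tumour type was checked against markers. The epithelial keratin genes Krt8 and Krt18 lay between 13.06 and 13.52 and between 13.08 and 13.33 on the parental arrays. Nkx2-1, the lung lineage transcription factor gene, lay between 3.88 and 4.16 and the surfactant gene Sftpc between 4.25 and 4.56, below the array medians of 4.75 to 4.89. Napsa, a further lung adenocarcinoma marker, lay above those medians, between 5.05 and 5.89. The epithelial label was thus borne out by the keratin genes, while the lung markers were mixed, with Nkx2-1 and Sftpc dim and Napsa not. The Gapdh control probe sets of the 3' end exceeded those of the 5' end by 0.21 ± 0.08 (SD, n = 3) under IgG and by 0.32 ± 0.09 under anti-PD-1 (two-sided exact permutation p = 0.2, where 0.1 is the smallest possible), and actin by 0.70 ± 0.13 and 0.80 ± 0.06 (exact permutation p = 0.3).

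Transcription factors of the AP-1 family, dimers of Fos, Jun and ATF proteins, were the first early genes examined. Of 13 measured members 6 rose and none fell, against 1.23% of all genes called higher, and 12 had a positive difference, with a median of 0.62. Fosb was at 5.29, 4.92 and 4.86 in IgG replicates 1 to 3 and at 7.35, 8.44 and 7.44 under anti-PD-1. Its difference of 2.72 (SE 0.31, adjusted p = 0.0122) is a 6.59-fold rise, and the lowest anti-PD-1 array lay well above the highest IgG array. Fos, the partner of Jun in the classical dimer, was at 9.79, 10.04 and 10.07 and rose to 11.23, 11.65 and 11.63, by 1.54 (SE 0.18, adjusted p = 0.0122). Atf3, a stress-induced member of the wider family, was at 6.94, 6.90 and 7.21 and rose to 8.11, 9.01 and 8.62, by 1.56 (SE 0.19, adjusted p = 0.0122). The groups did not overlap in any of the 3 genes, and without both arrays their differences were 3.00, 1.38 and 1.5 (adjusted p = 0.0414, 0.0486 and 0.0486).

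Jund, Junb and Fosl2 rose by smaller amounts. Jund was nearly level in IgG at 10.44, 10.45 and 10.43 and rose by 0.62 (SE 0.09, adjusted p = 0.0184), although its second probe set pointed the other way. Junb rose by 0.55 (adjusted p = 0.0299) and Fosl2 by 0.66 (adjusted p = 0.0289). Jun itself, at 7.81, 7.66 and 7.88 against 8.12, 8.39 and 8.98, did not pass (0.71, adjusted p = 0.0575), and Fosl1 differed by -0.06. The members Batf, Batf2 and Batf3 had differences of 0.21, 0.77 and 0.35 and did not pass. Without both arrays 4 of the 13 were called higher and the median was 0.48.

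A further list held 40 genes of the EGR, NR4A and Krüppel-like factors and of the phosphatases and RNA-binding proteins that shut early signals off. In this list 14 genes rose (1.23% of all genes) and none fell, 37 had a positive difference, and the median was 0.50. Egr1, a zinc finger factor induced by the MAP kinase pathway, was at 10.41, 10.54 and 10.57 under IgG and 11.57, 12.11 and 11.60 under anti-PD-1, a difference of 1.25 (SE 0.19, adjusted p = 0.0184). Its relative Egr2 rose by 1.21 (SE 0.23, adjusted p = 0.028). The orphan nuclear receptor gene Nr4a1, also induced by T cell receptor signals, was at 7.58, 7.70 and 7.54 and rose to 8.25, 8.93 and 9.30, by 1.22 (SE 0.20, adjusted p = 0.022). The IgG arrays of Egr1 and Nr4a1 lay close together (SD 0.09 and 0.08, n = 3), and their anti-PD-1 arrays spread more widely (SD 0.30 and 0.53).

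Genes that end signalling rose as well. Dusp1, a phosphatase that switches off MAP kinases, was at 9.11, 9.37 and 9.68 and rose to 10.26, 10.48 and 10.80, by 1.13 (SE 0.20, adjusted p = 0.0241). Zfp36, which promotes decay of cytokine messages, rose by 1.16 (adjusted p = 0.0381), and Socs3, an inhibitor of signalling through the IL-6 receptor, by 0.70 (adjusted p = 0.0314). Ppp1r15a, which restores translation after stress, rose by 0.87, and the antiproliferative gene Btg2 by 0.76. The other called members were Csrnp1 (1.17), Ccn1 (1.04, with 2 of 4 probe sets opposed in sign), the clock gene Per1 (1.06), the kinase gene Sgk1 (1.06), Klf4 (0.79) and Klf2 (0.62). Of the uncalled members nearest the threshold, Klf6 differed by 0.46 (adjusted p = 0.0507) and Nfkbia, the inhibitor of NF-kappa B, by 0.88 (adjusted p = 0.0585). Without both arrays the median of the list was 0.51, close to the value with them, but 1 gene was called, Dusp5 at 0.92, and none of the 14.

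**Figure D1:**
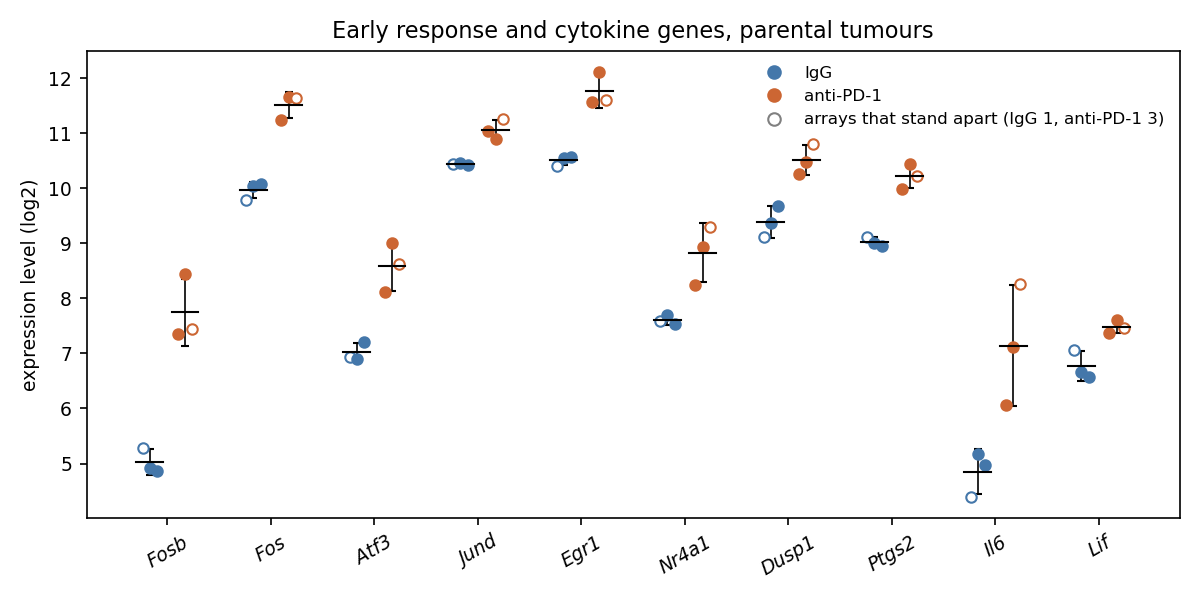
Log2 expression level (vertical axis) of 10 early response and cytokine genes in the parental tumours, with 1 point per array, a line at the group mean and bars of 1 SD (n = 3). Blue points are IgG and orange points anti-PD-1, and open points are the arrays that stand apart. All anti-PD-1 points lie above all IgG points for each gene, by the widest margin for Fosb.

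Promoters of these genes were read from RefSeq, build GRCm38.p6, as the 250 bases before the first listed start, 5' to 3' on the gene's strand, to show which response elements the risen genes carry there. The motifs, searched on both strands, were the AP-1 site TGANTCA, the cyclic AMP response element TGACGTCA, the gamma-activated site TTCNNNGAA, the interferon-stimulated response element (ISRE, GAAA, any 2 bases and GAAA), the CArG box that serum response factor binds, and TATAAA. Of all 27025 genes with a promoter in the table, 6.87% held the AP-1 site, 1.62% the cyclic AMP element, 7.18% the gamma-activated site, 3.04% the ISRE, 1.4% the CArG box and 13% TATAAA. Among risen members with an entry, the cyclic AMP element was in 3 of 13 feedback genes and in 0 of 6 AP-1 genes, and the AP-1 site was in 0 of 13 and 0 of 6. The gamma-activated site was in 3 of 13 and 0 of 6, the ISRE in 2 of 13 and 1 of 6, the CArG box in 1 of 13 and 0 of 6, and TATAAA in 1 of 13 and 1 of 6. The following sequences are shown for Fos and for the 3 feedback genes with the cyclic AMP element, which is in capitals. It ends 136 bases before the start in Dusp1, 159 in Btg2 and 5 in Ppp1r15a. A match describes the letters and is not evidence of a bound site.
Fos (chr12:85473640-85473889, plus strand): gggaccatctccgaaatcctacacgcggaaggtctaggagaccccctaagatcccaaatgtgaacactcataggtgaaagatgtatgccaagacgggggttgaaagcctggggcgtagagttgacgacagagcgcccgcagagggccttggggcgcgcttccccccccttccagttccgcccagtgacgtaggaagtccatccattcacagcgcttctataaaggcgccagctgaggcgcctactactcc
Dusp1 (chr17:26508473-26508722, minus strand): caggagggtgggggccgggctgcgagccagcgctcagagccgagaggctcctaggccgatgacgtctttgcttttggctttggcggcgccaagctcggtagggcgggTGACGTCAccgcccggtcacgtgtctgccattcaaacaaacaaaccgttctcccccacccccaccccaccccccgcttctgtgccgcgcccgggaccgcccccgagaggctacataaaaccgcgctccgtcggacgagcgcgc
Btg2 (chr1:134079156-134079405, minus strand): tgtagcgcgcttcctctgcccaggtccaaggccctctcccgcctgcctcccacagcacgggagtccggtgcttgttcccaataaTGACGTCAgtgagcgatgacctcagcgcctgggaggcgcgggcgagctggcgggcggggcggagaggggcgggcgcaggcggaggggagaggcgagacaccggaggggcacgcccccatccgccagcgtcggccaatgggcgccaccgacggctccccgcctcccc
Ppp1r15a (chr7:45526269-45526518, minus strand): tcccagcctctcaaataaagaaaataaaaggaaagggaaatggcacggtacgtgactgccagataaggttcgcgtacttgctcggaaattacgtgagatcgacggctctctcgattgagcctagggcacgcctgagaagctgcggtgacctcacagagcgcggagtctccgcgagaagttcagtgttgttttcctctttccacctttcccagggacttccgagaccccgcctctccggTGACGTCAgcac

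Cytokines of the IL-6 family, their receptors and prostaglandin enzymes formed a list of 19 measured genes, of which 5 rose (1.23% of all genes) and none fell (median 0.58). Il6, the cytokine that signals through gp130 and Stat3, was at 4.39, 5.18 and 4.98 under IgG and 6.06, 7.11 and 8.26 under anti-PD-1, a difference of 2.29 (SE 0.47, adjusted p = 0.034). Its lowest IgG value and its highest anti-PD-1 value came from the arrays that stand apart, and without both the difference was 1.5 (adjusted p = 0.102). Ptgs2, the inducible cyclooxygenase of prostaglandin synthesis, was tighter, at 9.12, 9.01 and 8.95 against 9.99, 10.44 and 10.23, a rise of 1.19 (SE 0.16, adjusted p = 0.0122) that was 1.24 without both arrays (adjusted p = 0.0486). Lif, a cytokine of the same family, rose by 0.71 (SE 0.13, adjusted p = 0.0266) and by 0.86 without both (adjusted p = 0.0414), although a further probe set was opposed in sign. Stat3, the transcription factor downstream, rose by 0.56 (adjusted p = 0.034), and Socs3, described above, belongs to this list too. The receptor genes Il6st, Osmr and Il6ra differed by 0.84, 0.86 and 0.69 and did not pass. The list median was 0.32 without both arrays. In the Il6 promoter the AP-1 site, in capitals, ends 243 bases before the start, and 2 of the 5 risen genes, Il6 and Lif, held that site, while 1 of 5 held the gamma-activated site and 0 of 5 any other motif.
Il6 (chr5:30012864-30013113, plus strand): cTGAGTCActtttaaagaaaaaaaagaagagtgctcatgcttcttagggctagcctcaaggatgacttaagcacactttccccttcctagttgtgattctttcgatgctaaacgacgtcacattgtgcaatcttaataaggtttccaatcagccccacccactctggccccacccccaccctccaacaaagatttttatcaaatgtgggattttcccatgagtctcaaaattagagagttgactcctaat

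Other inflammatory cytokines and receptors passed nowhere in the main fit: 0 of 26 were called, with a median of 0.27 and of 0.08 without both arrays. Hbegf, an EGF receptor ligand, was at 9.53, 9.13 and 9.34 and at 10.02, 10.07 and 9.66 (0.58, adjusted p = 0.0527), and it was called without both arrays (0.81, adjusted p = 0.0486). The neutrophil list had 0 of 16 called. Its chemokine gene Cxcl3 stood at 5.29, 5.74 and 6.0 against 5.80, 7.90 and 9.40, with a difference of 2.02 (SE 0.85, adjusted p = 0.198) that was 0.98 without both. The neutrophil median turned from 0.37 to -0.17 without both arrays and was -0.10 when only anti-PD-1 replicate 3 was left out.

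T cell and monocyte chemokines had 1 call among 19. Ccl4, a chemokine of activated T cells and macrophages, was at 5.92, 6.16 and 6.18 and rose to 6.38, 6.96 and 7.33, by 0.80 (SE 0.19, adjusted p = 0.0436), and by 0.50 without both arrays (adjusted p = 0.158). Cxcl12, a stromal chemokine, was at 5.82, 7.36 and 7.78 against 8.07, 9.22 and 10.55, a difference of 2.29 that did not pass (adjusted p = 0.0597). The list median of 0.63 was -0.01 without both arrays.

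Among the immune lists, the interferon-inducible GTPases and MHC class I processing had the largest medians, and neither had a call. All 10 interferon-inducible GTPases, which act against intracellular pathogens, had a positive difference, with a median of 1.07, yet 0 were called. Igtp was at 8.17, 10.32 and 10.42 under IgG and 9.86, 11.15 and 11.38 under anti-PD-1, and its difference of 1.16 had an SE of 0.86 (adjusted p = 0.472). IgG replicate 1 was the low array in each of the 10 genes: the mean level of the list was 7.96 there, 10.23 and 10.32 in the other IgG arrays, and 9.64, 10.98 and 11.03 under anti-PD-1. The groups overlapped, since anti-PD-1 replicate 1 lay below IgG replicates 2 and 3. Without IgG replicate 1 the list median was 0.26, and without both arrays it was 0.08. ISRE letters were in 6 of the 7 GTPase promoters in the table and the gamma-activated site in 3 of 7. Igtp and Irgm1 are shown with the ISRE alone in capitals, of which Irgm1 holds 2 overlapping copies. Igtp also holds the gamma-activated site, which is left in lower case.
Igtp (chr11:58199306-58199555, plus strand): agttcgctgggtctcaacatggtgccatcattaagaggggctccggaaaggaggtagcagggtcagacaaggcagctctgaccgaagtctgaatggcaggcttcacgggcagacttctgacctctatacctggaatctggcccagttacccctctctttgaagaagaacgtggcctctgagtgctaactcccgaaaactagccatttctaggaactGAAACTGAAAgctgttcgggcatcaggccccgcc
Irgm1 (chr11:48871421-48871670, minus strand): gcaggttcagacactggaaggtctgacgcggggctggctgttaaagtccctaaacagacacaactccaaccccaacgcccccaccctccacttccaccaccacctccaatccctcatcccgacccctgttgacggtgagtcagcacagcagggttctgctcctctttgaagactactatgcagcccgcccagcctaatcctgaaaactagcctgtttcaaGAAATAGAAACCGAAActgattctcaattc

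Other interferon lists followed the same arrays. The receptor and signalling chain of interferon gamma had 14 of 14 positive and 0 called, with a median of 0.60, and 0.20 without both arrays. Type I interferon stimulated genes had 25 of 26 positive and 0 called, and their median went from 0.63 to -0.08. MHC class I processing had 0 of 14 called and a median of 0.73, and 0.04 without both arrays. Its classical genes H2-K1 and H2-D1 lay at 10.35 and 10.69 in IgG replicate 1, between 12.16 and 12.33 in the other IgG arrays and between 12.38 and 12.99 under anti-PD-1. Their anti-PD-1 arrays did not overlap IgG, with differences of 1.13 (adjusted p = 0.193) and 0.88 (adjusted p = 0.177), and 0.38 and 0.31 without both. The peptide transporter gene Tap2 differed by 1.38 (adjusted p = 0.101). MHC class II genes, of professional antigen presenting cells, had 0 of 10 called and medians of 0.46 and, without both, 0.00.

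**Figure D2:**
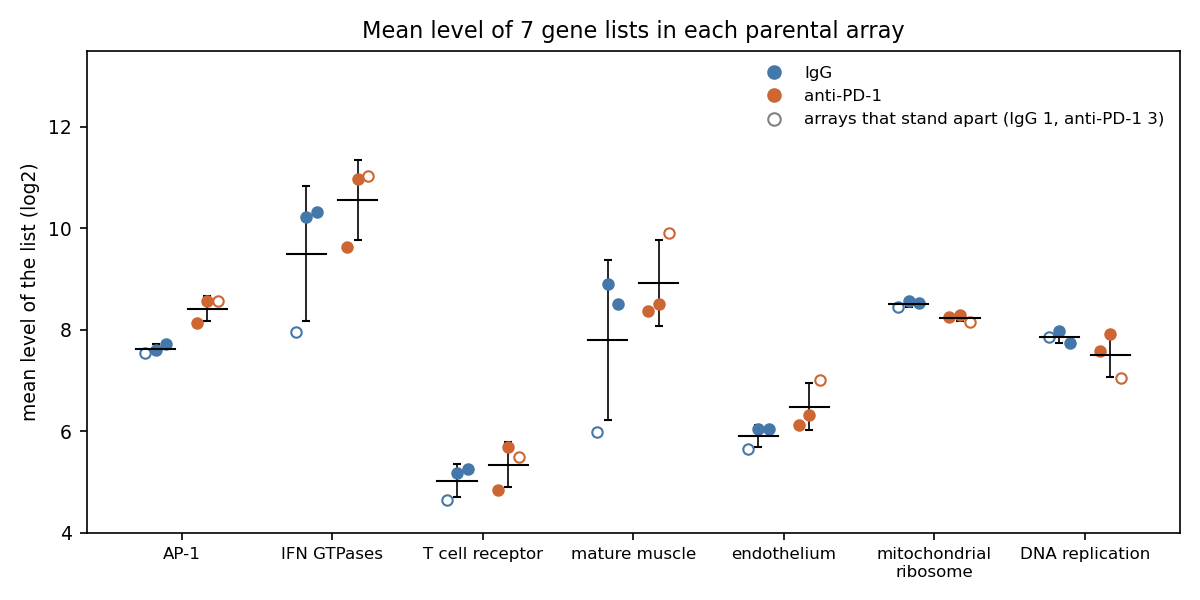
Mean log2 level of 7 gene lists in each parental array (vertical axis), with group means and bars of 1 SD (n = 3). Blue is IgG, orange anti-PD-1 and open points are the arrays that stand apart. AP-1 and mitochondrial ribosomal means separate the groups with narrow spread, whereas the interferon GTPase and muscle means are set apart mainly by IgG replicate 1, at 7.96 and 5.99.

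Among PD-1 and its ligands, Pdcd1, the target of the antibody, was dim at 3.06, 3.44 and 3.62 under IgG and 3.12, 4.49 and 3.74 under anti-PD-1 (difference 0.41, adjusted p = 0.416). Cd274, which encodes PD-L1, was at 5.71, 7.04 and 7.34 against 7.06, 8.62 and 9.04, a difference of 1.54 (SE 0.55, adjusted p = 0.139) that was 0.65 without both arrays. Its lowest value came from IgG replicate 1 and its highest from anti-PD-1 replicate 3. Of 22 ligands and checkpoint genes 0 were called, with a median of 0.46, and 0.18 without both arrays. Nt5e, an enzyme that makes adenosine, came nearest (0.65, adjusted p = 0.0505), and the costimulatory receptor gene Icos, at 4.42, 5.68 and 5.61 against 5.69, 7.23 and 6.76, differed by 1.32 (adjusted p = 0.093). Ctla4 was highest in anti-PD-1 replicate 2 at 6.96 and differed by 1.29 (adjusted p = 0.12).

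Lymphocyte lists held 1 call. Gzmk, a granzyme of memory and exhausted CD8 T cells, was at 4.93, 4.82 and 5.02 and rose to 5.31, 6.29 and 5.87, by 0.90 (SE 0.20, adjusted p = 0.0371), with no overlap, and by 0.88 without both arrays (adjusted p = 0.132). Gzma differed by 1.51 (adjusted p = 0.145), while Gzme was lower, at 9.29, 8.80 and 8.32 against 7.42, 7.56 and 8.17 (-1.09, adjusted p = 0.075). The 20 granzyme, perforin and NK receptor genes had a median of 0.39, the 16 genes of the T cell receptor complex and coreceptors 0.26 with 0 called, and the 9 genes of regulatory T cells 0.23 with 0 called. Cd8a overlapped between the groups, at 4.55, 5.18 and 5.57 against 4.66, 6.01 and 5.25, and so did Cd3e. Without both arrays the 3 medians were 0.04, 0.02 and 0.20.

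Myeloid and B lineage lists passed nowhere in the main fit. Of 27 macrophage and monocyte genes 0 were called (median 0.21, and -0.12 without both), and Csf1r, the receptor of their growth factor, was at 9.34, 9.57 and 9.90 against 9.65, 10.28 and 11.04 (0.72, adjusted p = 0.178). Dendritic cell genes (0 of 15, medians 0.21 and, without both, 0.05) and B and plasma cell genes (0 of 13, medians 0.03 and -0.03) were likewise without calls. Mcpt8, a protease of basophils outside these lists, fell from 10.78, 10.20 and 9.92 to 8.99, 9.69 and 8.54, by 1.23 on the log2 scale (SE 0.29, adjusted p = 0.0469), and differed by -0.72 without both arrays (adjusted p = 0.21). Mast cell and eosinophil genes had 0 of 13 called, with a median of 0.00 and, without both arrays, of -0.56, where Fcer1a, a chain of the IgE receptor, was called lower (-1.10).

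Epithelial genes lay mostly on the lower side. Of 25 keratin and adhesion genes 21 had a negative difference, 0 were called, and the median of -0.19 was 0.07 without both arrays. Ehf, an epithelial ETS factor, was at 8.58, 8.34 and 8.26 against 7.68, 7.56 and 7.23 (-0.90, adjusted p = 0.0587). Among 18 tight junction genes Marveld3 fell by 0.94 on the log2 scale (adjusted p = 0.022), and the call was lost without both arrays (adjusted p = 0.0644), where the list median went from -0.17 to 0.07. Lung lineage genes had a median of -0.05 and 0 of 18 called, and the surfactant gene Sftpb was called lower without both arrays (-1.18).

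Transporters of epithelia had 4 of 26 called lower and none higher, with 23 negative and a median of -0.23 (-0.14 without both). Cftr, the chloride channel mutated in cystic fibrosis, was at 8.22, 7.62 and 7.57 under IgG and 6.76, 6.56 and 4.86 under anti-PD-1, a difference of -1.74 (SE 0.40, adjusted p = 0.0406). Its fall was steepest in anti-PD-1 replicate 3, and the 2 against 2 difference was -0.94 (adjusted p = 0.0414). The size thus depended on the arrays that stand apart by more than 1.5 times. The call held without both, but in only 3 of the fits that left out 1 parental array (adjusted p up to 0.105). Its SD was 0.36 under IgG and 1.04 under anti-PD-1. The resistant arrays, which share in the estimate of spread, lay between 2.64 and 3.12. Slc16a12, a creatine transporter, was at 6.52, 6.19 and 6.51 and fell to 5.17, 4.77 and 4.55 (-1.58, SE 0.29, adjusted p = 0.028). Kcne3, a subunit that tunes potassium channels of secretory epithelia, was at 8.45, 8.61 and 7.63 and fell to 6.90, 6.05 and 7.17 (-1.52, SE 0.30, adjusted p = 0.0318). Slc7a9, of cystine uptake, fell by 0.73 on the log2 scale (adjusted p = 0.0292). Of these 4, Cftr alone was called without both arrays.

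The list of detoxification enzymes, in which the synthetic enzyme gene Ddc was also counted, had 5 of 26 called lower and none higher. Its median was -0.16 and, without both arrays, -0.38. Gsta3, a glutathione transferase, was dim and tight, at 4.17, 3.88 and 4.46 against 3.15, 2.97 and 3.01, a difference of -1.13 (SE 0.14, adjusted p = 0.0122) that was -1.11 without both (adjusted p = 0.0486). Ddc, the decarboxylase of dopamine and serotonin synthesis, was at 5.61, 4.89 and 5.18 and fell to 4.04, 3.62 and 3.73 (-1.43, SE 0.18, adjusted p = 0.0122), with -1.20 without both (adjusted p = 0.0425). These 2 were the members called in both fits. Aadac, an esterase (-1.43), Sult1c2, a sulfotransferase (-1.37), and Mgst3, a microsomal glutathione transferase (-0.65), made up the rest. Gsta4 came near the threshold (-1.26, adjusted p = 0.0565), and Cyp4b1 lay on the other side at 1.32 without a call (adjusted p = 0.163).

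Liver and foregut genes, which adenocarcinomas of the lung can express when lung identity is lost, had 2 of 25 called lower, 21 negative and a median of -0.25, with -0.24 without both arrays. Lgals4, an intestinal lectin, fell by 0.65 on the log2 scale (adjusted p = 0.0309), and Gkn2, a gastric mucosal protein, was at 5.64, 6.10 and 5.64 and fell to 4.52, 4.84 and 4.33 (-1.23, SE 0.26, adjusted p = 0.0363). Ttr, the thyroid hormone carrier, was at 7.85, 8.22 and 9.02 against 7.02, 6.90 and 6.49 (-1.56, adjusted p = 0.0575), and its 4 probe sets all pointed lower. Neither called gene of this list passed without both arrays.

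**Figure D3:**
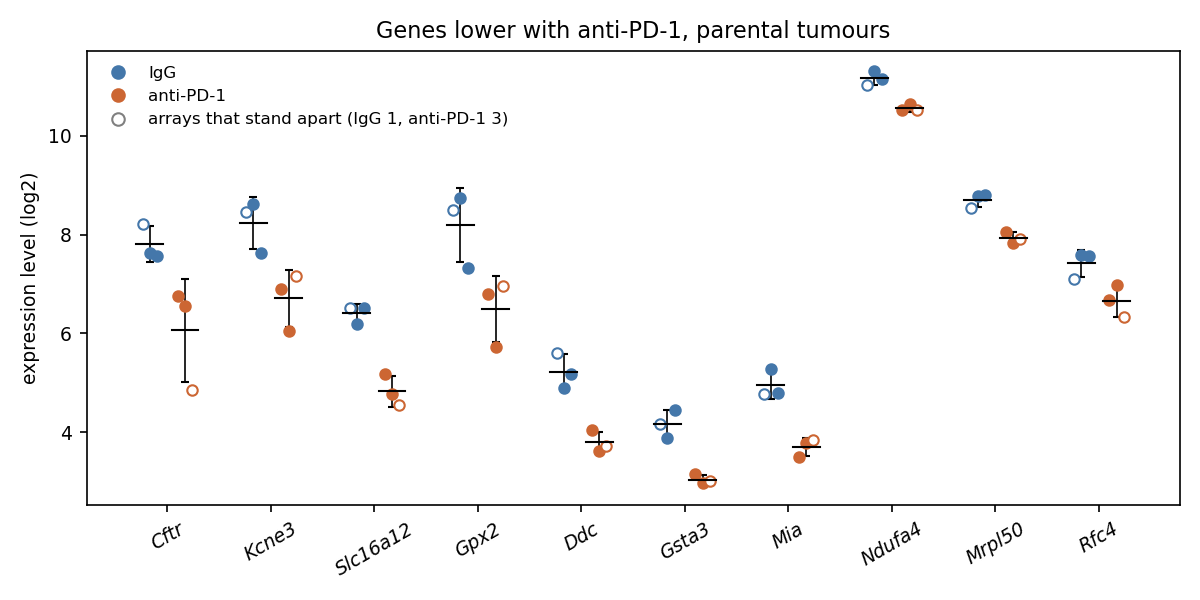
Log2 expression level (vertical axis) of 10 genes that fell with anti-PD-1 in parental tumours, with 1 point per array, a line at the group mean and bars of 1 SD (n = 3). Blue is IgG, orange anti-PD-1, and open points are the arrays that stand apart. No orange point reaches a blue one for any gene, and anti-PD-1 replicate 3 is the far array for Cftr at 4.86.

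Antioxidant and ferroptosis genes were examined because lipid peroxidation is a route by which T cells are known to kill tumour cells. Gpx2, an epithelial glutathione peroxidase, was at 8.49, 8.74 and 7.33 and fell to 6.80, 5.73 and 6.95 (-1.69, SE 0.37, adjusted p = 0.0381). Nfe2l2, which encodes the antioxidant regulator NRF2, fell by 0.39 on the log2 scale (adjusted p = 0.0332), although a further probe set was opposed in sign. Of 26 NRF2 and glutathione genes these 2 fell and Slc3a2 rose, with a median of -0.08. Slc3a2, the heavy chain of the cystine importer and of other amino acid transporters, rose by 0.53 (adjusted p = 0.022), and its light chain gene Slc7a11, dim at 3.43, 4.00 and 4.09 against 3.68, 4.92 and 4.31, differed by 0.46 (adjusted p = 0.365).

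The central genes of ferroptosis did not pass. Gpx4, the peroxidase that repairs lipid peroxides, was at 11.29, 11.56 and 11.51 against 11.30, 11.38 and 11.29 (-0.13, adjusted p = 0.422), and Acsl4, which prepares the lipids that oxidise, differed by 0.06 (adjusted p = 0.814). The ferroptosis defence list had 2 of 21 higher, Slc3a2 and the ubiquinone reductase gene Aifm2 (0.39, adjusted p = 0.0491), and the list of drivers 1 of 30, Ptgs2. Their medians were -0.13 and 0.01. None of the calls for Slc3a2, Aifm2, Gpx2 and Nfe2l2 held without both arrays (adjusted p = 0.0591, 0.139, 0.0942 and 0.0975).

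Fatty acid binding proteins, small carriers of lipids in the cytosol, had 0 of 7 called and a median of 0.04. Fabp4, of adipocytes, macrophages and vessels, was at 5.33, 8.95 and 8.53 against 8.13, 9.32 and 10.70 (1.78, SE 0.95, adjusted p = 0.301), and the difference was -0.02 without both arrays. Fabp5, of epithelial and tumour cells, was at 10.79, 10.98 and 10.89 against 10.40, 10.76 and 10.75 (-0.25, adjusted p = 0.497), without overlap. Fabp3 differed by 0.77, Fabp7 by 0.19, Pmp2 by 0.04, Fabp12 by -0.07 and Fabp6 by -0.11. The adipocyte hormone gene Adipoq varied with the same arrays as Fabp4, from 3.11 in IgG replicate 1 to 7.38 in anti-PD-1 replicate 3.

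Lipid and energy lists were mostly without calls. Sterol and fatty acid synthesis had 0 of 23 called and a median of -0.25 that was -0.01 without both arrays, lipid uptake and droplets 0 of 21 with a median of 0.21, and fatty acid oxidation 1 of 22, Echs1, an enoyl-CoA hydratase (-0.48, adjusted p = 0.0309, and 0.11 without both arrays). Ppargc1a, a coactivator of mitochondrial genes, was called lower only in the fit without both arrays (-0.94). Of 26 glycolysis and hypoxia genes 24 were positive and Pfkfb4, a regulator of glycolytic flux, rose by 0.66 (adjusted p = 0.034). The list median was 0.26, and 0.10 without both arrays, where 19 genes were positive and Pfkfb4 was not called (0.52, adjusted p = 0.124). It was 0.09 when only anti-PD-1 replicate 3 was left out.

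Mitochondrial ribosomal proteins, which build the ribosome that translates the mitochondrial genome, had 11 of the 351 lower calls. Of 75 genes 73 had a negative difference, 11 fell and none rose, beside 2.27% of all genes called lower, and 46 did not overlap between the groups, beside 13.4%. Their median was -0.27 and the largest fall was that of Mrpl50, at 8.54, 8.77 and 8.79 under IgG and 8.05, 7.82 and 7.91 under anti-PD-1 (-0.77, SE 0.11, adjusted p = 0.0122). Mrpl21 was at 8.48, 8.54 and 8.56 and fell to 8.07, 8.13 and 7.97 (-0.47, adjusted p = 0.0184). The other called members, Mrps22, Mrpl1, Mrps33, Mrpl20, Mrps18c, Mrpl36, Mrpl11, Mrpl32 and Mrpl17, differed by -0.53 to -0.33. The differences of the 75 genes ran from -0.77 to 0.02, and the list mean was 8.44, 8.56 and 8.53 under IgG and 8.26, 8.29 and 8.16 under anti-PD-1. The median was -0.28 without both arrays, where 7 genes were called lower, and between -0.32 and -0.26 when any parental array was left out. None of the 11 fallen members, all with an entry among the promoters, held the AP-1 site or the cyclic AMP element, and 2 of 11 held the gamma-activated site and 2 of 11 the ISRE.

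The respiratory chain and ATP synthase list had 3 of 30 lower and 25 negative (median -0.13, and -0.24 without both). Ndufa4, a subunit of cytochrome oxidase, was at 11.03, 11.30 and 11.14 and fell to 10.52, 10.65 and 10.51 (-0.60, SE 0.08, adjusted p = 0.0122). The ATP synthase genes Atp5c1 and Atp5o fell by 0.41 and 0.36 on the log2 scale (adjusted p = 0.0343 and 0.0411). Ndufa4 and Atp5c1 were called without both arrays as well.

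All 28 genes of DNA replication were negative, with 3 called and a median of -0.33. Pcna, the sliding clamp of replication, was at 11.04, 11.09 and 10.95 and fell to 10.55, 10.74 and 10.40 (-0.46, SE 0.09, adjusted p = 0.0329), and Rfc4 and Rfc3, subunits of its loader, fell by 0.76 and 0.44 on the log2 scale (adjusted p = 0.0393 and 0.0431). Mitosis genes had 27 of 29 negative, 0 called and a median of -0.34. Both medians came largely from anti-PD-1 replicate 3: the mean level of the replication list was 7.05 there, 7.58 and 7.91 in the other anti-PD-1 arrays and 7.85, 7.97 and 7.74 under IgG. Leaving out that array gave medians of -0.05 and 0.00, and leaving out both gave -0.03 and -0.04, where Rfc4 remained called (-0.74, adjusted p = 0.0486). The p53 target Cdkn1a, an inhibitor of the cell cycle, differed by 0.90 without a call (adjusted p = 0.0671).

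Host tissue lists moved with the arrays that stand apart. All 33 genes of the mature sarcomere were positive, 0 were called, and their median of 1.22 was -0.34 without both arrays. The list mean was 5.99 in IgG replicate 1, 8.91 and 8.50 in the other IgG arrays and 8.37, 8.51 and 9.90 under anti-PD-1. Without IgG replicate 1 the median was 0.14. Endothelial genes had 25 of 28 positive, 0 called and 15 higher without overlap (9.12% of all genes), with a median of 0.53 that was 0.19 without both, and the vascular gene Plvap lay at 6.01, 6.98 and 7.18 against 7.40, 7.85 and 8.83 (1.30, adjusted p = 0.1). Collagens and matrix genes (0 of 37 called, median 0.36) and adipocyte genes (0 of 16, median 0.25) had medians of 0.03 without both arrays.

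Genes of regenerating and denervated muscle had 4 of 24 called higher (1.23% of all genes), 11 higher without overlap (9.12% of all genes) and a median of 0.52 (0.33 without both). Their list mean was also lowest in IgG replicate 1, at 5.99, and highest in anti-PD-1 replicate 3, at 7.38. The median was 0.27 when only anti-PD-1 replicate 3 was left out. Myog, the factor that drives differentiation of muscle precursors, was at 4.67, 4.85 and 5.11 and rose to 6.54, 7.11 and 7.40 (2.14, SE 0.38, adjusted p = 0.024). Chrna1, the acetylcholine receptor subunit that spreads over denervated fibres, rose by 1.40 (adjusted p = 0.0431), the growth factor gene Igf2 by 1.39 (adjusted p = 0.0358) and Myl4 by 2.19 (SE 0.49, adjusted p = 0.04, opposed in sign by a further probe set). For Myog IgG replicate 1 was the lowest array and anti-PD-1 replicate 3 the highest. Without both arrays Myog differed by 1.84 (adjusted p = 0.0975), and none of the 4 was called.

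Adventitial fibroblast markers had 3 of 21 higher: the hyaluronan synthase gene Has1 (0.98, adjusted p = 0.0339), the matrix gene Cilp (1.68, adjusted p = 0.04) and Pi16, a marker of fibroblasts around vessels (1.38, adjusted p = 0.0411). Cilp was at 5.52, 6.19 and 6.77 and rose to 7.30, 7.68 and 8.55, with its extremes in the arrays that stand apart. Without both arrays Cilp differed by 1.01 (adjusted p = 0.16), Pi16 by 0.77 (adjusted p = 0.133) and Has1 by 0.63 (adjusted p = 0.0534), so that none was called. The list median was 0.54, and 0.12 without both. Bmp2, a secreted differentiation factor, rose by 0.77 (adjusted p = 0.0309), and differed by 0.55 without both (adjusted p = 0.083).

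**Figure D4:**
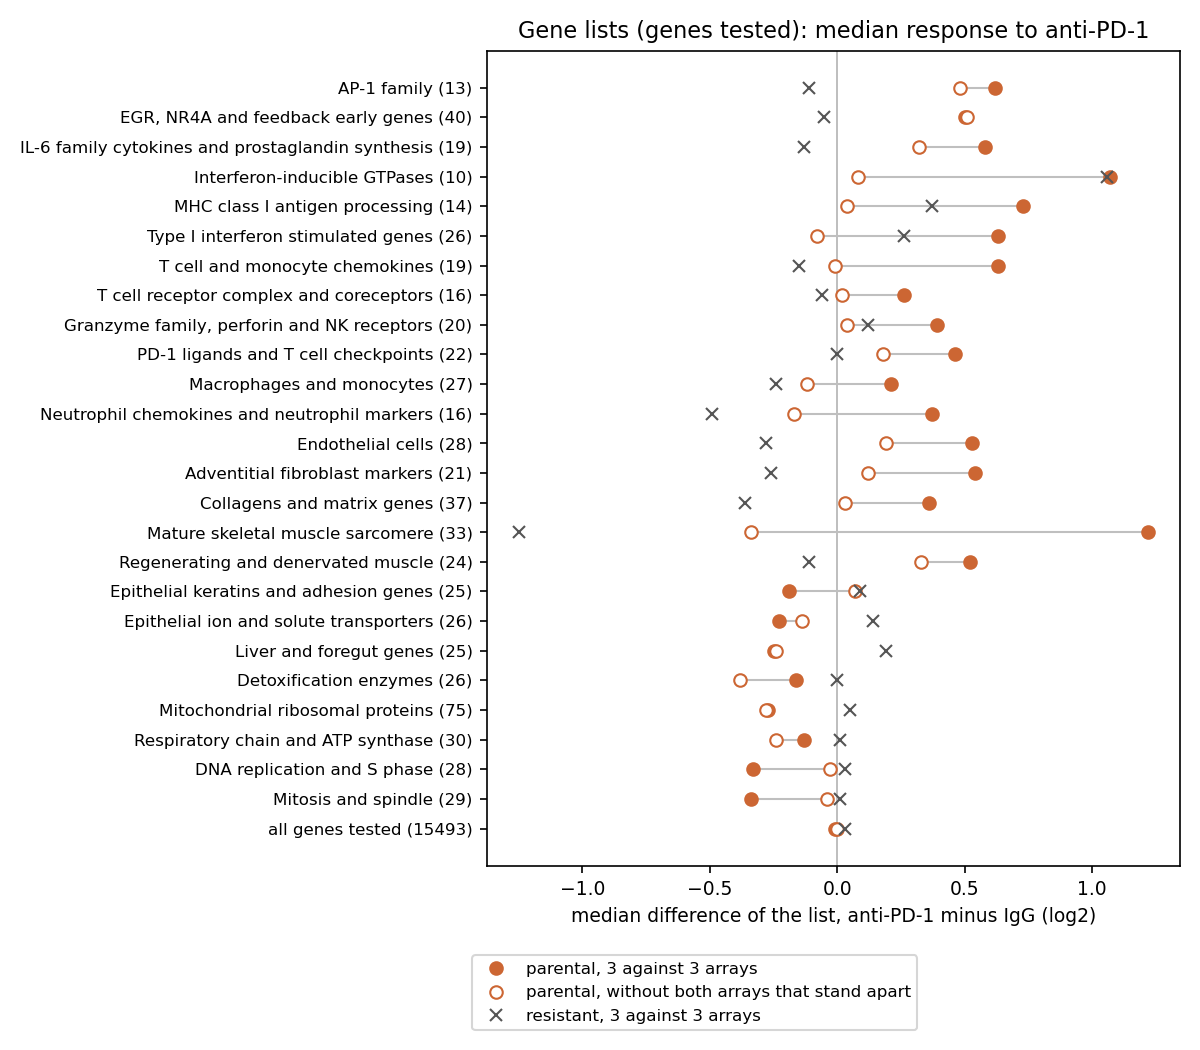
Median difference of each gene list, anti-PD-1 minus IgG on the log2 scale (horizontal axis), with the number of genes tested in brackets. Filled points are parental tumours with 3 against 3 arrays, open points the same without both arrays that stand apart, and crosses the resistant tumours. Early gene and mitochondrial ribosomal medians stay near their place, while the sarcomere median moves from 1.22 to -0.34 and the interferon GTPase median from 1.07 to 0.08.

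Genes outside the lists were named for passing both fits. Nav2, a neuron navigator protein gene, was at 5.02, 5.11 and 5.07 and rose to 6.70, 6.37 and 6.41 (1.43, SE 0.14, adjusted p = 0.00857), with 7 of its 8 probe sets pointing higher, but its value was 0.54 with the mean of those probe sets in place of the brightest. Mia, a secreted protein gene known from melanoma and cartilage, was at 4.78, 5.28 and 4.80 and fell to 3.49, 3.78 and 3.84 (-1.25, SE 0.16, adjusted p = 0.0122). Zfp606, a zinc finger gene, was at 6.20, 6.28 and 6.14 and fell to 5.44, 5.03 and 4.70 (-1.15, SE 0.15, adjusted p = 0.0122). The groups of these genes did not overlap, which held for all 542 called genes and sets none of them apart. Also higher in both fits were the transporter genes Slco4a1 (1.10) and Slc23a2, for vitamin C (0.80), the glycosyltransferase gene Gcnt2 (0.74) and Ankrd52 (0.66). Also lower in both were the kinase anchor gene Akap5 (-1.08), Rida (-0.98), Dcun1d1 (-0.79) and Exph5 (-0.64). For Nav2, Gcnt2 and Dcun1d1 a further probe set pointed the other way, as it did for 90 of the 333 called genes with several.

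Among the largest differences that passed with all arrays and not without both were Gem, a small GTPase (1.30), Adgrg2, an adhesion receptor (1.28), Slc7a2, a transporter of arginine (1.24), Ly6k (-1.27), the tetraspanin gene Tspan1 (-1.20) and Cmbl, a hydrolase (-1.08). Stress lists had few calls. Of 28 unfolded protein and heat shock genes Trib3, a target of the integrated stress response, rose by 0.66 (adjusted p = 0.0471) and Sdf2l1, of the endoplasmic reticulum, fell by 0.32 on the log2 scale (adjusted p = 0.0481), with a median of 0.06. Lists with 0 called were those of p53 targets (20 genes, median 0.15, and 0.06 without both arrays), myofibroblasts and pericytes (15, median 0.04, and -0.20 without both), regulators of epithelial to mesenchymal transition (16, median 0.10), keratinocytes (11, median 0.42, and 0.09 without both arrays), nerve (11, median 0.04) and red blood cells (3, median -0.08).

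**Figure D5:**
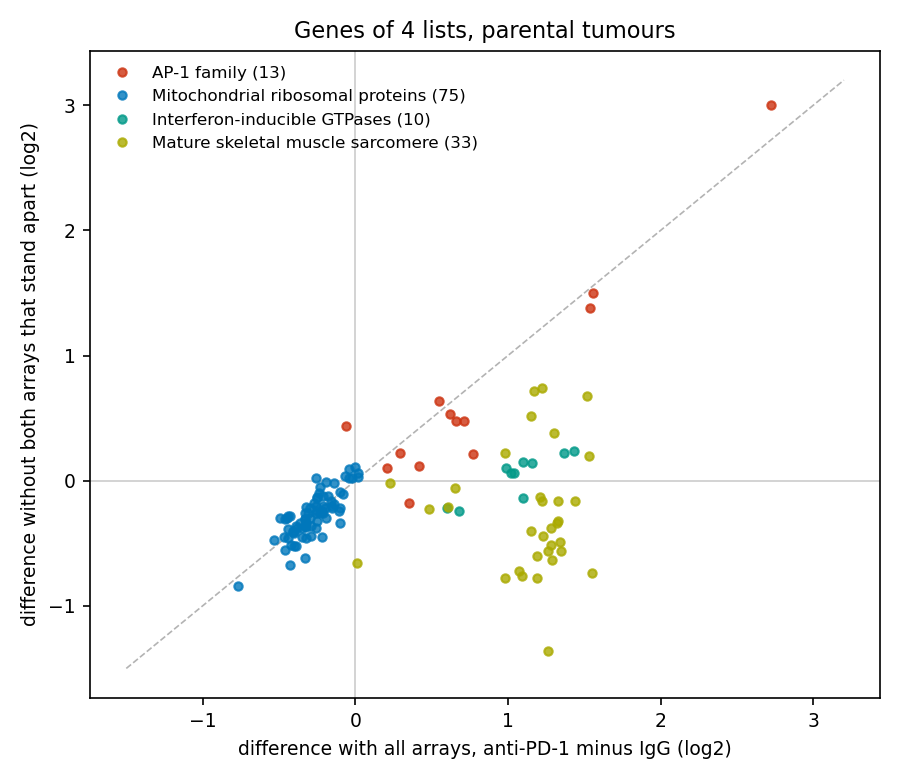
Difference of each gene with all arrays (horizontal axis) against the difference without both arrays that stand apart (vertical axis), anti-PD-1 minus IgG on the log2 scale, for 4 lists, with the dashed line marking equal values. AP-1 and mitochondrial ribosomal genes lie along the line, and interferon GTPases and most sarcomere genes lie well below it, near or under 0.

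Resistant tumours, which share no array with the parental comparison, gave the same contrast for reference. There limma called 0 genes for anti-PD-1 against IgG (0%), with 738 at an unadjusted p under 0.05, and 58.7% of all genes had a positive difference. Fosb lay between 4.29 and 4.87 in resistant IgG arrays and between 3.84 and 4.78 under anti-PD-1, a difference of -0.19 (adjusted p = 0.931), and Fos differed by 0.09. The AP-1, feedback gene and mitochondrial ribosomal medians were -0.11, -0.05 and 0.05 in resistant tumours, against 0.62, 0.50 and -0.27 in parental ones. The interferon GTPase median was 1.06 in resistant and 1.07 in parental tumours, without a called member in either. The parental value was 0.08 without both arrays that stand apart. In resistant tumours Igtp overlapped between the groups, at 6.55, 5.82 and 8.4 under IgG and 7.4, 7.27 and 9.77 under anti-PD-1 (limma, adjusted p = 0.896).

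The difference between the lines was tested as an interaction, resistant response minus parental response, and 0 genes passed (0%), with 2713 at an unadjusted p under 0.05. The 5 parental calls with the smallest interaction p were Nav2 (-1.37), Exph5 (1.10), Atf3 (-1.90), Fosb (-2.91, SE 0.43) and Zfp606 (1.39), each at an adjusted p of 0.101. A response of the parental line that differs from that of the resistant line was therefore not established for any gene at this threshold, and neither was equality. Cftr lay between 2.64 and 3.12 in the 6 resistant arrays, under the lower quartile of each array.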

How the data were processed

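Tumour RNA extracted with Triazol was turned into biotin-labelled cRNA by T7 polymerase and hybridized to 12 arrays, per the labels' protocols. The authors deposited a table of log2 values, 12 per probe set, whose scale and near-equal quantiles (array lower quartiles 3.27 to 3.36) were read from the values. Background correction, normalization and summarization are not given in the sources used here. Of all pairs no 2 arrays were identical (0 pairs), with correlations of 0.959 to 0.997, and arrays carry no read depth, so their number limits the precision.

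Of 45101 probe sets, 64 were controls, 34945 carried 1 gene in the platform annotation, 932 several and 9160 none. Symbols were updated by gene number through a RefSeq table of GRCm38.p6 for 34741. Each gene took its brightest probe set by the mean of the 12 arrays (18193 genes), and genes with at least 3 arrays above 3.32, the 25th percentile of all values, were tested. The linear model had 1 mean for each of 4 groups and was fitted to 12 arrays by limma 3.58.1 under R 4.3.3 (8 residual and 2.98 prior degrees of freedom, median SE of a difference 0.117). Its p-values are two-sided and adjusted by Benjamini-Hochberg over the 15493 genes tested. The scripts were tested on simulated data, and matplotlib 3.10.9 under Python 3.11.15 drew the figures.

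The 51 gene lists (1250 entries, 1102 tested) and the named genes were chosen with earlier results of these data known, and lists were given no test. Named were the 15 highest and 15 lowest called genes, the 10 largest in each direction called also without both arrays that stand apart, all called members of the lists, further members in order of p up to 4 in lists with fewer calls, Pdcd1, Cd274, Gpx4, Slc7a11, Acsl4 and the fatty acid binding protein genes, and the 5 smallest interaction p. Gene predictions, clones and rearranging receptor segments of lymphocytes were passed over. Further list members near a threshold, and those called only without both arrays, were chosen after their values were seen. Alternatives tried were other sets of arrays, filters, scalings, probe set rules, array weights, a variance trend and a replicate block.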

Additional observations from a re-analysis of the deposited data

How the results depend on the processing

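With all other choices kept, 0 genes were called with only the 6 parental arrays (0 higher, 0 lower), 100 without both arrays that stand apart (25 higher, 75 lower) and 918 with array weights (343 higher, 575 lower), beside 542 (191 and 351) as reported. Leaving out each parental array in turn gave 9 to 712 calls, 4 to 381 of them higher and 5 to 358 lower. The other settings gave 415 calls (mean of the probe sets) to 733 (stricter filter). Centring each array on its median gave 678 calls and lowered the share of higher calls from 35.2% to 26.7%. The interaction of line and antibody had 0 calls as reported, 121 with array weights, 3 with the replicate block and 0 to 78 when a parental array was left out. Whether the array numbers pair the samples is not known. After removal of group means, same-numbered parental arrays correlated at 0.636, 0.057 and 0.44, and differently numbered ones at -0.515 to 0.369. With the replicate block 725 genes were called, 311 higher and 414 lower. Calls of 89 named genes were followed: 83 were kept with array weights, 88 when centred, 84 after quantile normalization, 82 with the replicate block, 81 without a filter, 68 with the mean of the probe sets, 27 without both arrays and 0 with only the 6 parental arrays. The cause of these shifts was not tested. Of the list medians, 12 moved by more than the spread between replicates without both arrays. The sign changed for the lists of neutrophils, T cell and monocyte chemokines, type I interferon genes, B cells, macrophages, keratins and tight junctions. It also changed for those of fatty acid binding proteins, the mature sarcomere, myofibroblasts and ID genes.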

Other observations

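Lower calls outside the lists included families that were picked after the values were seen, so their counts are descriptions. Of all genes tested 2.27% fell and 1.23% rose. Of 313 tested zinc finger genes named Zfp and a number, 21 fell and 1 rose, with a median difference of -0.12, and -0.06 without both arrays that stand apart. Of 9 genes of the COP9 signalosome, which removes the NEDD8 tag from ubiquitin ligases, 5 fell: Cops6 (-0.48, adjusted p = 0.0191), Cops2 (-0.47, adjusted p = 0.0309), Cops4 (-0.43, adjusted p = 0.0335), Cops5 (-0.34, adjusted p = 0.0436) and Cops3 (-0.34, adjusted p = 0.0466), all by limma over all genes. Dcun1d1, which helps to attach that tag, fell too (-0.79). Without both arrays 2 of the 9 COP9 genes were called lower, and 2 of the 313 zinc finger genes, beside 0.484% of all genes. The zinc finger count is near that share.

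Proteasome genes had 6 of 39 lower (median -0.18), mitochondrial import genes 5 of 22 (median -0.21) and Sm and LSm splicing genes 5 of 18 (median -0.30), with none higher, beside 2.27% of all genes called lower. Without both arrays 0, 1 and 1 of these were called lower, beside 0.484% of all genes. Cytosolic ribosomal protein genes had 0 of 47 called and a median of -0.06, beside -0.27 for the mitochondrial ribosomal proteins. In resistant tumours the medians of all these families lay between -0.01 and 0.06. The span of the gene in the genome had a median of 21.1 kb over all genes tested, 20.4 kb for the higher and 16.7 kb for the lower calls.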
